A study of Macaca fascicularis with 3 samples.

Results

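S100A4, S100A8 and S100A10 encode small proteins of the S100 family, and their transcripts are described here in eye and thigh muscle of the cynomolgus macaque (Macaca fascicularis). The members were the rows of those names, 3 of 33298 gene names in the cell table and 3 of 32313 in each nuclei table, and each table held 1 row per member. They were chosen by their levels in these same libraries, which an earlier look at the data had shown to differ between muscles and preparations, so their levels are a description, with no test. There were 3 libraries, 1 in each group: whole cells of extraocular muscle (EOM, which moves the eye), nuclei of EOM and nuclei of the quadriceps femoris muscle (QFM, a limb muscle of the thigh). No treatment, genotype, age or number of animals is given in the labels, and the file names call the QFM preparation single-cell where its title says nuclei; were the file names right, each EOM against QFM ratio would also set nuclei against cells. With 1 library per group, neither animal nor library preparation can be told apart from muscle.

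S100 proteins act mostly as calcium-sensing dimers that bind partner proteins inside cells, and some are also released. S100A8 pairs with S100A9 to form calprotectin, a major cytosolic protein of neutrophils, which monocytes also make and which signals through TLR4 and AGER when released. S100A4 binds nonmuscle myosin heavy chain and is known for its part in cell motility in fibroblasts, macrophages and lymphocytes. S100A10 is unusual in that it does not bind calcium; it forms a complex with annexin A2 (ANXA2) at the membrane, where it binds plasminogen.

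After filtering, 7111 EOM cells, 13970 EOM nuclei and 10528 QFM nuclei were kept, with median depths of 1142, 2812 and 4509.5 UMIs (unique molecular identifiers, which count each captured transcript once) and median mitochondrial shares of 11.9%, 0.459% and 0.190%. The EOM and QFM nuclei libraries shared 51 barcodes. Barcodes have 27 letters in the EOM cell library and 16 in the nuclei libraries, so none could be shared between cells and nuclei. Cells and nuclei of EOM thus also differ in barcode design, which cannot be told apart from preparation in their ratios. A barcode was put in the class of a marker when that marker had at least 1 UMI and more UMIs than any other of the 6 markers. Levels are CPM, the gene's UMIs per 1000000 UMIs of a class, and intervals are 95% and cover counting error only, since cells of a library are not replicates. In summed libraries, fewer positive barcodes and less RNA per barcode cannot be told apart by a level, so shares of barcodes are given beside it.

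The classes were checked against marker lists. CD163-positive barcodes numbered 190 in EOM cells, 321 in EOM nuclei and 205 in QFM nuclei, and the macrophage list was 12.3, 22.6 and 40.8 times the level of the whole library there. The monocyte or neutrophil list summed to 8378 CPM in CD163-positive EOM cells, 186 CPM in EOM nuclei and 1627 CPM in QFM nuclei. CSF3R-positive barcodes numbered 297 in EOM cells, where 6 of 7 neutrophil markers were seen and CMTM2 was at 0, but only 17 in EOM nuclei and 4 in QFM nuclei. In the CSF3R-positive EOM nuclei only 1 of 7 neutrophil markers was seen and the myofibre list stood at 34011 CPM, so these nuclei went against the label and carry no result on neutrophils. PDGFRA-positive barcodes (154, 898 and 506) led in fibroblast markers and PTPRB-positive barcodes (867, 2363 and 1394) in endothelial markers. PAX7-positive barcodes (4, 2383 and 574) held satellite cell markers at 3.41 and 13.4 times the library level in EOM and QFM nuclei. Myofibre markers stood at 37052 CPM in PAX7-positive EOM nuclei, against 33981 CPM in QFM nuclei, and 1365 of the 2383 EOM nuclei rested on 1 PAX7 UMI. NOTCH3, the mural marker, has no row in the nuclei tables, so that class was described in the 722 NOTCH3-positive EOM cells, and RGS5 stood in for it across libraries as a marker chosen after the data were seen.

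In EOM cells and QFM nuclei, S100A8 lay mostly in the myeloid classes. It was at 12752 CPM (12367 to 13146) in CSF3R-positive EOM cells and 1822 CPM (1700 to 1951) in CD163-positive EOM cells, followed by 224 CPM in PDGFRA-positive, 138 CPM in NOTCH3-positive and 28.5 CPM in PTPRB-positive cells. The CSF3R-positive cells held 3.37% of the library's UMIs and 61.8% of its S100A8. EOM cells with none of the markers had 182 CPM (171 to 193) and held 16.3% of the S100A8 in 62.4% of the UMIs. In QFM nuclei it was at 1171 CPM (1101 to 1244) in the CD163 class, which held 1.64% of the UMIs and 77.9% of the S100A8, at 4.04 CPM in the PDGFRA class and at 4.56 CPM in the PTPRB class. In EOM nuclei it was nearly unseen, with 8 UMIs among 49558687 and 0 UMIs in the CD163, CSF3R and PDGFRA classes.

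**Figure D1:**
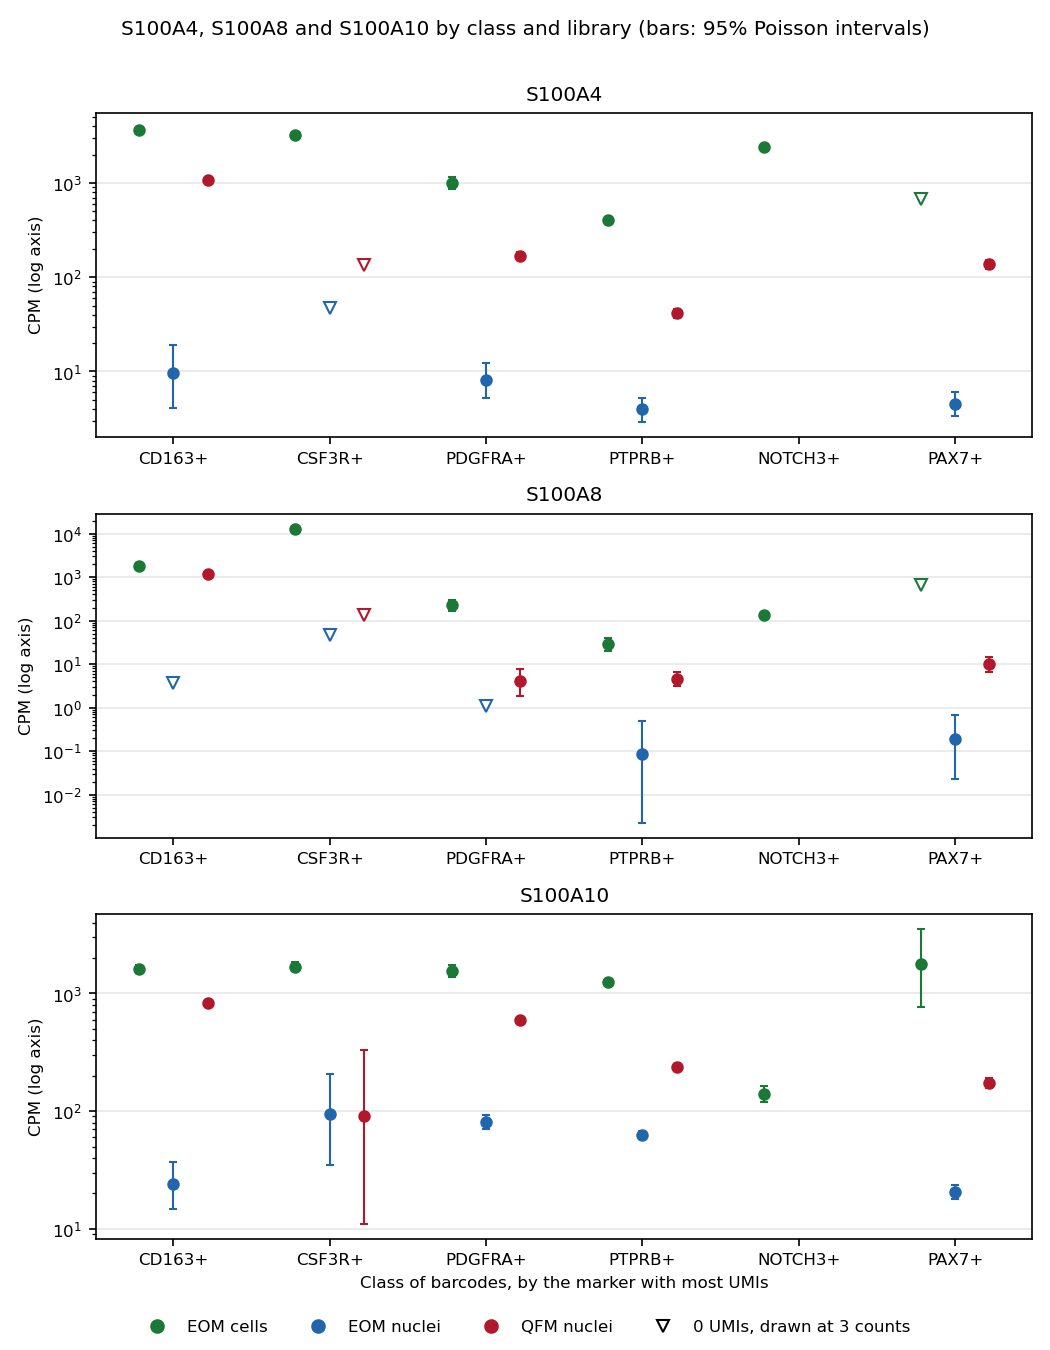
CPM of each gene (log axis) by marker class, with EOM cells in green, EOM nuclei in blue and QFM nuclei in red; bars are 95% Poisson intervals and open triangles mark 0 UMIs, drawn at 3 counts. S100A8 was at 12752 CPM in CSF3R-positive EOM cells and at 1171 CPM in CD163-positive QFM nuclei, and S100A10 was at 141 CPM in NOTCH3-positive cells where S100A4 was at 2415 CPM.

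In 3 of the classes outside the myeloid ones, single barcodes held much of the S100A8. Of 44 S100A8 UMIs in PDGFRA-positive EOM cells, 33 came from 1 barcode, and the level without it was 56.2 CPM. Of 160 UMIs in NOTCH3-positive cells, 84 came from 1 barcode, and without it the level was 65.4 CPM. In PAX7-positive QFM nuclei 16 of 25 UMIs lay in 1 nucleus, and without it the level was 3.63 CPM. No order was read among these values. The 39 UMIs in PTPRB-positive EOM cells lay in 35 barcodes with at most 2 each, and the 9 in PDGFRA-positive QFM nuclei with at most 1 each.

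Between muscles, S100A8 was lower in CD163-positive EOM nuclei: 0 UMIs in 321 nuclei, against 1037 UMIs in 205 QFM nuclei, which is at least 325-fold lower at a floor of 3 counts in the EOM sum. In this comparison 15.2% of 9311 features measured with at least 20 counts lay at least 2-fold lower in EOM nuclei, and no measured feature had a lower ratio than S100A8. Clusters named macrophage from their marker lists gave 0 UMIs in 367 EOM nuclei and 1246 CPM in 256 QFM nuclei, where 15.1% of features lay at least 2-fold lower. In the PDGFRA class there were 0 UMIs in EOM against 9 in QFM nuclei, which is at least 3.79-fold lower at the floor but below the minimum of 20 counts over both sums. In the PTPRB class the log2 ratio was -5.70 (-11.05 to -3.11), from 1 UMI in EOM nuclei against 31 in QFM nuclei, of which 11 were in 1 nucleus; without it the QFM level was 2.94 CPM. Nuclei with none of the markers had 0.230 CPM of S100A8 in EOM, from 5 UMIs, against 4.98 CPM (4.33 to 5.71) in QFM, from 206. The PDGFRA and PTPRB classes of QFM did not stand above these marker-free nuclei. Their S100A8 was therefore not particular to fibroblast or endothelial nuclei. CSF3R-positive nuclei held 0 S100A8 UMIs in both muscles, so no ratio is given.

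Set against EOM nuclei, EOM cells held far more S100A8. In the CD163 class it was at least 506-fold higher in cells, and in clusters named macrophage at least 26.9-fold higher, from 45 UMIs in cells against 0 in nuclei. Most of the S100A8 of CD163-positive cells lay in a cluster with monocyte markers, and no such cluster was named in EOM nuclei. In the CSF3R class it was at least 271-fold higher in cells, where the nuclei were the 17 that carry no result on neutrophils. Over all barcodes the log2 ratio of cells over nuclei was 12.07 (11.09 to 13.28), from 6709 UMIs in cells against 8 in nuclei, with 27.6% of 12264 features at least 2-fold higher in cells. In the CD163 class 20.9% of 6931 features lay at least 2-fold higher in cells and 56.4% at least 2-fold lower.

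The share of barcodes with S100A8 followed the same order once each barcode was thinned to 500 UMIs. Among EOM cells it was 69.7% of the CSF3R class, 18.4% of the CD163 class and 1.50% of the PTPRB class, an endothelial class that should lack the gene, with median depths of 674, 2372.5 and 1148 UMIs before thinning. Without thinning the shares were 75.1%, 32.6% and 4.04%. In QFM nuclei the thinned share was 18.5% in the CD163 class and 0.430% in the PTPRB class, with 34.1% and 1.43% unthinned at median depths of 3765 and 4032 UMIs. In EOM nuclei 0 of 321 CD163-positive nuclei had a S100A8 UMI at a median of 2162 UMIs, which allows a share of nuclei with a UMI of up to 0.935% (3 counts of the total) and does not limit the share that express the gene. With the PTPRB share taken as background, the CD163 classes of EOM cells and QFM nuclei stood above it.

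S100A8 was not spread evenly over CD163-positive barcodes. In EOM cells, 78 of 190 fell in a cluster with monocyte markers (IL1B, FCN1 and VCAN among its leading genes) and held 95.8% of the class's S100A8, at 3537 CPM. The 61 in a cluster led by LYVE1 and C1QB, genes of resident macrophages, had 269 CPM, and the 35 in a second macrophage cluster had 12.5 CPM. In QFM the 21 nuclei richest in S100A8 held 79.1% of the class's S100A8 UMIs, with at most 82 in 1 nucleus. QFM had only 1 macrophage cluster, which held 99.3%, so clusters do not show how S100A8 was spread within this class. Among CSF3R-positive EOM cells, 221 of 297 lay in a cluster led by MMP9 and CAMP, genes of neutrophil granules, and had 24150 CPM. S100A8 was itself among the genes clustered, so these splits are a description.

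S100A8 and its partner S100A9 were counted in different proportions in the 3 libraries. There were 3.44 S100A8 UMIs per S100A9 UMI (2.98 to 3.99) in CD163-positive and 2.90 (2.73 to 3.08) in CSF3R-positive EOM cells. In EOM nuclei as a whole there were 8 S100A8 and 23 S100A9 UMIs, a ratio of 0.348 (0.135 to 0.805). In CD163-positive QFM nuclei it was 15.95 (12.4 to 20.8), from 1037 S100A8 and 65 S100A9 UMIs. The annotation behind the cell table differs from that of the nuclei tables, and its part in these ratios was not tested; both nuclei tables list the same features.

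S100A4 was wider than S100A8. In EOM cells it was at 3669 CPM (3495 to 3849) in the CD163 class, 3200 CPM (3008 to 3400) in the CSF3R class, 2415 CPM (2327 to 2506) in the NOTCH3 class, 1007 CPM (872 to 1158) in the PDGFRA class and 400 CPM (367 to 435) in the PTPRB class. EOM cells with none of the markers had 1958 CPM and held 64.1% of the library's S100A4 in 62.4% of its UMIs. Only 38.0% of the 297 CSF3R-positive cells had a S100A4 UMI, and 30 of them held 62.5% of the class's S100A4. The cluster of 267 EOM cells assigned to CSF3R by its level held 130 S100A4 UMIs. That was 0.706% of the library's S100A4, against 1.85% of its UMIs, so the class level does not describe that cluster. Part of the CD163 class of EOM cells lay in the cluster with monocyte markers. That cluster had 5840 CPM of S100A4, so the CD163 level is not that of macrophages alone. In QFM nuclei the order was CD163 at 1061 CPM (995 to 1132), PDGFRA at 169 CPM (152 to 187), PAX7 at 137 CPM (123 to 152) and PTPRB at 41.3 CPM (36.6 to 46.4). The PDGFRA and PAX7 intervals met at their ends, so these neighbours were not set apart. In EOM nuclei the CD163, PDGFRA, PTPRB and PAX7 classes lay between 3.95 and 9.61 CPM, and the CD163 interval (4.15 to 18.9) held the levels of the PDGFRA class at 8.18 CPM and the PAX7 class at 4.55 CPM. The 17 CSF3R-positive EOM nuclei and the 4 PAX7-positive EOM cells had 0 S100A4 UMIs, with limits far above these levels (57.9 CPM in the nuclei).

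Set against endothelial barcodes, mural barcodes had more S100A4 and less S100A10. Within EOM cells, the NOTCH3 class had S100A4 higher than the PTPRB class by a log2 ratio of 2.59 (2.46 to 2.73), while S100A10 was lower by a log2 ratio of -3.14 (-3.38 to -2.91), at 141 CPM against 1243 CPM. A smooth muscle cluster in EOM cells had 2861 CPM of S100A4 and 47.5 CPM of S100A10, and an unnamed cluster, led by RGS16 and CH25H with the contractile genes ACTG2 and CNN1 among its leading genes, had 2852 and 33.2 CPM. Another mural cluster, with the pericyte genes RGS5 and KCNJ8 among its leading genes, had 449 CPM of S100A4 and 124 CPM of S100A10. In QFM nuclei the mural cluster had 234 CPM of S100A4 and 159 CPM of S100A10, against 11.5 and 340 CPM in the endothelial cluster with most nuclei, so S100A4 was again higher and S100A10 lower.

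**Figure D2:**
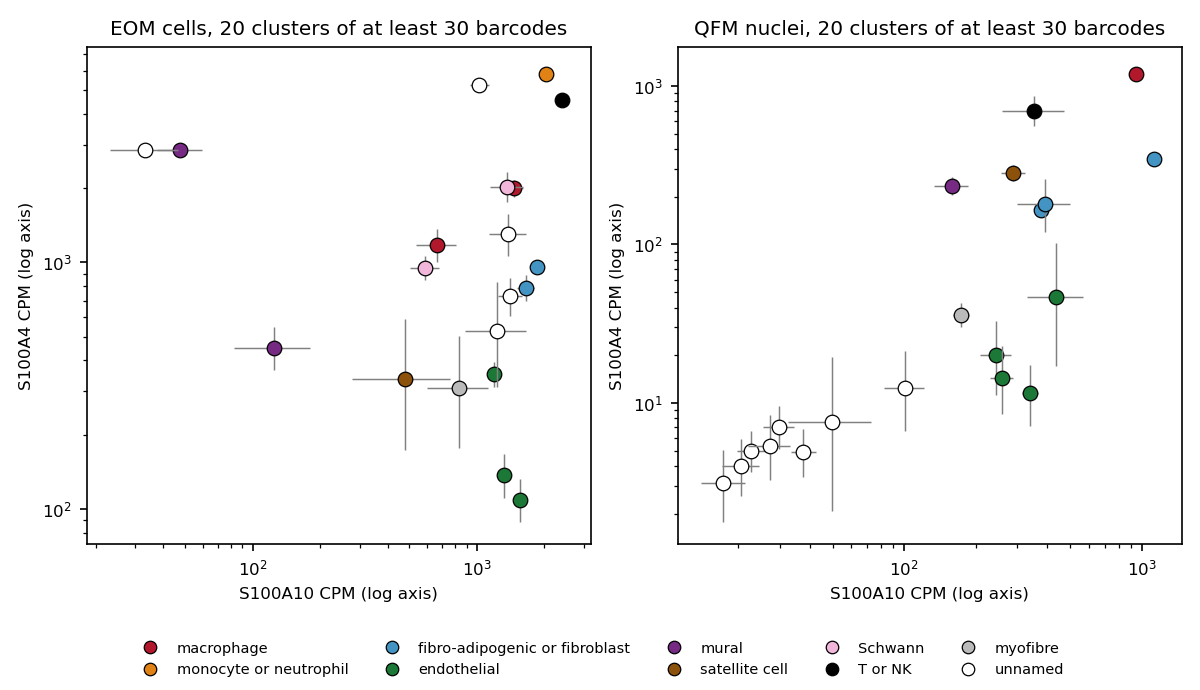
S100A4 against S100A10 CPM (log axes) in each cluster of at least 30 barcodes, EOM cells on the left and QFM nuclei on the right, coloured by the name given from marker lists; lines are 95% Poisson intervals. In EOM cells the mural clusters sit at 47.5 to 124 CPM of S100A10 with 449 to 2861 CPM of S100A4, and the endothelial clusters at 1195 to 1564 CPM of S100A10 with 109 to 351 CPM of S100A4.

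Other EOM cell types held S100A4 too. The T or NK cluster had 4555 CPM, the monocyte cluster 5840 CPM, and a cluster led by FCGR3A, which stayed unnamed, 5257 CPM with only 29.8 CPM of S100A8. The 2 macrophage clusters had 1175 and 2000 CPM. Schwann clusters had 950 and 2028 CPM. Endothelial clusters had 109, 137 and 351 CPM. The 32 satellite-cell barcodes had 336 CPM.

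Between muscles, S100A4 was lower in EOM nuclei in the CD163, PDGFRA, PTPRB, PAX7 and RGS5 classes. It was also lower in EOM nuclei with none of the markers, at 8.09 CPM (6.94 to 9.37) against 27.6 CPM (26.1 to 29.3) in QFM. Of 18746 features, 7.7% lay at least 2-fold lower there. A lower level was therefore not particular to the classes. The log2 ratio was -6.79 (-8.00 to -5.80) in the CD163 class, from 8 UMIs in EOM nuclei against 940 in QFM nuclei, and -4.37 (-5.04 to -3.76) in the PDGFRA class, from 23 against 376. It was -3.39 (-3.87 to -2.93) in the PTPRB class, -4.91 (-5.37 to -4.48) in the PAX7 class and -3.72 (-4.48 to -3.05) in RGS5-positive nuclei. In the PDGFRA class 14% of 12509 features lay at least 2-fold lower in EOM nuclei, in the PTPRB class 9.75% of 15858, and in the PAX7 class 17.2% of 15011. Of 281 S100A4 UMIs in the QFM PTPRB class, 110 came from 1 nucleus, and without it the QFM level was 25.2 CPM, against 41.3 CPM with it. Named clusters gave log2 ratios of -5.93 in macrophage, -4.82 in fibroblast, -3.18 in endothelial, -4.08 in mural and -4.68 in satellite cell clusters. The share of features at least 2-fold lower there was 12.9% in fibroblast, 6.11% in endothelial, 12% in mural and 12.2% in satellite cell clusters.

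S100A4 was also higher in EOM cells than in EOM nuclei: the log2 ratio was 8.58 in the CD163 class, 6.94 (6.32 to 7.64) in the PDGFRA class, 6.66 in the PTPRB class and 8.26 over all barcodes. In the PDGFRA class 21.3% of 8700 features and in the PTPRB class 23.5% of 10774 lay at least 2-fold higher in cells. Named clusters gave 3.48 (3.01 to 3.99) in Schwann cells, 5.60 in T or NK cells, 6.46 in macrophages, 6.77 in fibroblasts, 6.89 in endothelial cells and 7.53 in mural cells. Thinned to 500 UMIs, 63.2% of CD163-positive EOM cells, 0.312% of EOM nuclei and 24.4% of QFM nuclei had a S100A4 UMI. Unthinned the shares were 82.6%, 2.49% and 54.1%. In PTPRB-positive barcodes the thinned shares were 12.8%, 0.212% and 1.15%.

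S100A10 lay between 1243 and 1692 CPM in 4 of the EOM cell classes and was low in the NOTCH3 class. It was at 1692 CPM (1554 to 1840) in the CSF3R class, 1616 CPM (1501 to 1737) in the CD163 class, 1562 CPM (1392 to 1746) in the PDGFRA class and 1243 CPM (1184 to 1303) in the PTPRB class, with the NOTCH3 class apart at 141 CPM (120 to 164). The first 3 did not differ beyond their intervals. Cells with none of the markers were at 1138 CPM and held 65.4% of the library's S100A10 in 62.4% of its UMIs. The 4 PAX7-positive cells held 8 UMIs, an interval of 771 to 3521 CPM. In QFM nuclei the order was CD163 at 823 CPM (765 to 885), PDGFRA at 591 CPM (560 to 624), PTPRB at 237 CPM (226 to 249) and PAX7 at 172 CPM (156 to 189), with no overlap of neighbours. In EOM nuclei the order of the same classes was PDGFRA at 81.1 CPM (70.9 to 92.3), PTPRB at 63.1 CPM (58.5 to 67.9), CD163 at 24.0 CPM (14.7 to 37.1) and PAX7 at 20.4 CPM (17.8 to 23.3). The CD163 and PAX7 intervals overlapped there, and the 17 CSF3R-positive nuclei held 6 UMIs, an interval of 34.6 to 205 CPM. The CD163 class was thus first in QFM nuclei and below the PDGFRA and PTPRB classes in EOM nuclei. The order of PDGFRA before PTPRB in EOM nuclei was that of the marker classes, and clusters assigned to a marker by its level reversed it. PTPRB clusters (1276 nuclei) held 22.65% of the S100A10 of EOM nuclei in 7.26% of all UMIs. PDGFRA clusters (2238 nuclei) held 28.0% in 12.2%. No order of endothelial and fibroblast nuclei of EOM was therefore read from the marker classes.

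Between muscles, S100A10 was lower in EOM nuclei by a log2 ratio of -5.10 (-5.82 to -4.46) in the CD163 class, -2.87 (-3.08 to -2.66) in the PDGFRA class, -1.91 (-2.04 to -1.78) in the PTPRB class and -3.08 (-3.32 to -2.84) in the PAX7 class. The UMI counts were 20 against 729 in the CD163 class, 228 against 1318 in the PDGFRA class and 718 against 1613 in the PTPRB class, EOM before QFM. Of all features measured, 0.0967% in the CD163 class, 1.27% in the PDGFRA class and 2.07% in the PTPRB class had a lower ratio than S100A10. In named clusters the log2 ratio was -4.69 in macrophages and -2.83 in fibroblasts, and in endothelial clusters it was nearer to no difference, at -1.18 (-1.33 to -1.02). S100A10 was also lower in EOM nuclei with none of the markers, at 39.1 CPM against 74.0 CPM in QFM. There 8.68% of 18746 features had a lower ratio.

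**Figure D3:**
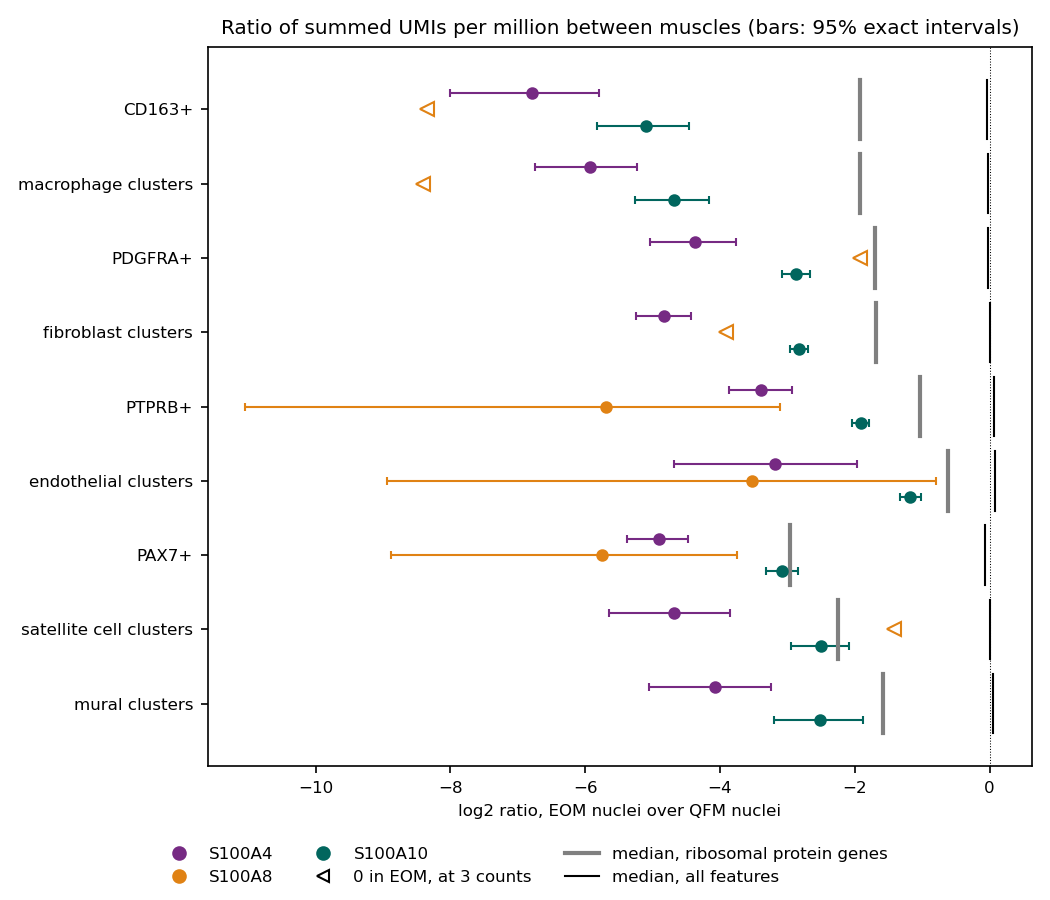
log2 ratio of EOM nuclei over QFM nuclei in marker classes and in named clusters, with S100A4 in purple, S100A8 in orange and S100A10 in green; bars are 95% exact intervals, open arrows mark 0 UMIs in EOM nuclei taken as 3 counts, grey ticks the median of ribosomal protein genes and black ticks that of all features. The CD163 class holds the lowest S100A4 and S100A10 ratios, at -6.79 and -5.10, while the median of all features there was -0.04.

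S100A10 was higher in EOM cells than in EOM nuclei by a log2 ratio of 6.07 in the CD163 class, 4.27 (4.02 to 4.52) in the PDGFRA class and 4.30 (4.17 to 4.43) in the PTPRB class. In mural clusters the ratio was 1.03 (0.38 to 1.74), the smallest for the gene among the named cluster types compared. Thinned shares of CD163-positive barcodes with a S100A10 UMI were 43.7% in EOM cells, 1.56% in EOM nuclei and 21.0% in QFM nuclei, and of NOTCH3-positive cells 7.2%. The unthinned shares were 77.9%, 6.23%, 58.5% and 12.6%. Of all S100A10 UMIs in EOM nuclei, 34.1% lay in the PTPRB class, as did 22.3% in QFM nuclei and 16.2% in EOM cells. The class held 23.0%, 12.6% and 14.2% of all UMIs in those libraries.

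Within the fibroblasts of QFM, S100A4 and S100A10 were both higher in 1 cluster. This cluster, with the adventitial fibroblast genes PI16, MFAP5 and CLEC3B among its leading genes, had 346 CPM of S100A4 and 1133 CPM of S100A10, against 166 and 376 CPM in the other large fibroblast cluster. Satellite cell nuclei of EOM had 11 CPM of S100A4 and 50.6 CPM of S100A10, against 283 and 288 CPM in those of QFM. The 138 T or NK nuclei of EOM had 93.8 CPM of S100A4, against 698 CPM in 44 QFM nuclei, a log2 ratio of -2.90. The 141 Schwann nuclei of EOM had 108.5 CPM (77.2 to 148), against 216 CPM (144 to 312) in 31 QFM nuclei. That log2 ratio, -0.99 (-1.73 to -0.24), was nearest to no difference among the named cluster types compared for S100A4, and the intervals of the 2 levels overlapped.

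The ribosomal protein genes moved in the same direction as the members. Their median log2 ratio of EOM over QFM nuclei was -1.92 in the CD163 class, -1.71 in the PDGFRA class, -1.03 in the PTPRB class and -2.96 in the PAX7 class, against -0.04, -0.02, 0.07 and -0.06 over all features. Ribosomal protein transcripts made up 0.188% of UMIs in CD163-positive EOM nuclei and 0.743% in QFM nuclei, and 3.12% in EOM cells. In cells over nuclei of EOM the ribosomal median was 3.98 in the CD163 class, while all features stood at -1.45. Between muscles, S100A4 and S100A10 lay below the ribosomal median in the CD163, PDGFRA and PTPRB classes, but in the PAX7 class S100A10 at -3.08 stood beside the ribosomal median of -2.96. The part of cytoplasmic RNA and of depth in the members' ratios was not tested.

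In the CD163 classes of EOM cells and QFM nuclei, barcodes with S100A8 more often held S100A4 than those without it. In QFM CD163-positive nuclei, 62 of 70 with a S100A8 UMI also had S100A4 (88.6%), against 49 of 135 without S100A8 (36.3%), and 64 of 70 had S100A10 (91.4%), against 56 of 135 (41.5%). In CD163-positive EOM cells, 60 of 62 with S100A8 had S100A4 (96.8%), against 97 of 128 (75.8%). Median depths were 4440.5 UMIs with S100A8 and 3555 UMIs without it in QFM nuclei, and 2594 UMIs and 2012 UMIs in EOM cells, and the part of depth was not tested. Not every class showed this order. Among CSF3R-positive cells, 78 of 223 with S100A8 had S100A4 (35.0%), against 35 of 74 without it (47.3%). In PTPRB-positive cells the shares were 22.9% and 24.4%. In NOTCH3-positive cells 11.5% of those with S100A4 had S100A10, against 14.9% of those without S100A4. CD163-positive EOM nuclei had at most 1 UMI of S100A4 or S100A10 each.

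Other members of the S100 family were set beside the 3. Of the 19 listed genes, only 12 have a row in the nuclei tables. In CD163-positive nuclei 6 of these were measured, with 20 or more counts over both muscles, the 3 members among them. The 3 other genes, S100A9, S100A2 and S100A1, lay at least 2-fold lower in EOM nuclei, at a median log2 ratio of -4.08 with a count of 0 taken at the floor, against a median of -0.04 and 15.2% at least 2-fold lower over all features. S100A9 was at 0 against 73.4 CPM, at least 20.4-fold lower in EOM nuclei, and S100A2 at 0 against 61.0 CPM, at least 16.9-fold lower. S100A1, known from striated muscle, was at 3.60 against 29.4 CPM, a log2 ratio of -3.03. In QFM nuclei S100A1 was at 51.6 CPM in the PDGFRA class and 62.0 CPM in the PTPRB class. It was at 61.9 CPM in nuclei with none of the markers and 385 CPM in myofibre clusters. None of these 3 classes stood above the marker-free nuclei beyond counting error, so S100A1 was not particular to them. S100A16 had 5 UMIs in EOM nuclei and 4 in QFM nuclei, below the count minimum. Besides the members only S100A1 and S100A16 were measured in the PDGFRA and PTPRB classes. S100A1 was at log2 ratios of -2.79 and -3.40 and S100A16 at -2.68 and -1.30, PDGFRA before PTPRB, where 14% and 9.75% of all features lay at least 2-fold lower. In the PAX7 class 2 of 3 other family genes lay at least 2-fold lower, against 17.2% of all features, and over all nuclei 3 of 5, against 8.21%. In cells over nuclei of EOM, 7 of 7 other family genes were at least 2-fold higher over all barcodes, at a median of 5.68, against the 27.6% of all features given above. In the PDGFRA and PTPRB classes 1 of 2 was at least 2-fold higher in each.

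S100A6 and S100A11 have no row in the nuclei tables and were described in EOM cells alone. S100A6 was at 1719 CPM and S100A11 at 1891 CPM in CD163-positive cells, and at 1280 and 4156 CPM in CSF3R-positive cells. In the same cells S100A9 was at 530 CPM in CD163-positive and 4403 CPM in CSF3R-positive cells. S100A12, the third calgranulin, was at 200 CPM in CSF3R-positive cells.

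In CD163-positive nuclei the partner lists held genes higher and genes lower in EOM. A median near no difference therefore does not mean that each gene differed little. Of the 9311 features measured there, 26.9% lay at least 2-fold apart in either direction. Of the S100A8 partner and receptor list, 4 genes were measured in CD163-positive nuclei: the calprotectin partner S100A9 as above, the scavenger receptor CD36 at 157 CPM in EOM against 74.5 CPM in QFM nuclei, a log2 ratio of 1.08, the endotoxin receptor TLR4 at 91.3 against 178 CPM, -0.97, and its co-receptor LY96 at 68.5 against 63.2 CPM, 0.11. Of the S100A10 list, 6 were measured, 2 at least 2-fold higher and 2 at least 2-fold lower, at a median of -0.37; 11.7% of all features lay at least 2-fold higher and 15.2% lower in EOM nuclei. ANXA2, its partner, was at 104 CPM in EOM against 336 CPM in QFM nuclei (-1.69), DLC1, a protein that S100A10 binds, at 703 against 150 CPM (2.23), the membrane repair gene DYSF at 79.3 against 97.1 CPM and the urokinase receptor PLAUR at 55.2 against 75.7 CPM. Of the S100A4 list, MYH9, a nonmuscle myosin heavy chain, was at 50.4 in EOM against 108 CPM in QFM nuclei (-1.10), while MYH10 and PPFIBP1 were within 2-fold. In the PTPRB class ANXA2 was at 79.5 in EOM against 165 CPM in QFM nuclei, and in the PDGFRA class at 135 against 481 CPM. In CD163-positive EOM cells ANXA2 was at 2027 CPM, against 104 CPM in EOM nuclei, a log2 ratio of 4.28.

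Of the monocyte and neutrophil list, 4 of 5 measured genes lay at least 2-fold lower in CD163-positive EOM nuclei, against 15.2% of all features, at a median log2 ratio of -4.23; S100A9 was 1 of them. The endotoxin co-receptor CD14 was at 66.1 CPM in EOM against 749 CPM in QFM nuclei, the lysozyme gene LYZ at 38.4 against 723 CPM and the iron-binding granule gene LTF at 4.80 against 110 CPM, while VCAN stood at 73.3 against 119 CPM, lower by less than 2-fold at a log2 ratio of -0.69 (-1.17 to -0.23). Macrophage markers were seen in both (10 of 10 in each). LTF was also lower over all EOM nuclei, at 20.7 against 455 CPM. In QFM nuclei LTF was at 534 CPM in nuclei with none of the markers and 436 CPM in myofibre clusters. The 110 CPM of the CD163 class lay below both, so LTF was not particular to the CD163 class.

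**Figure D4:**
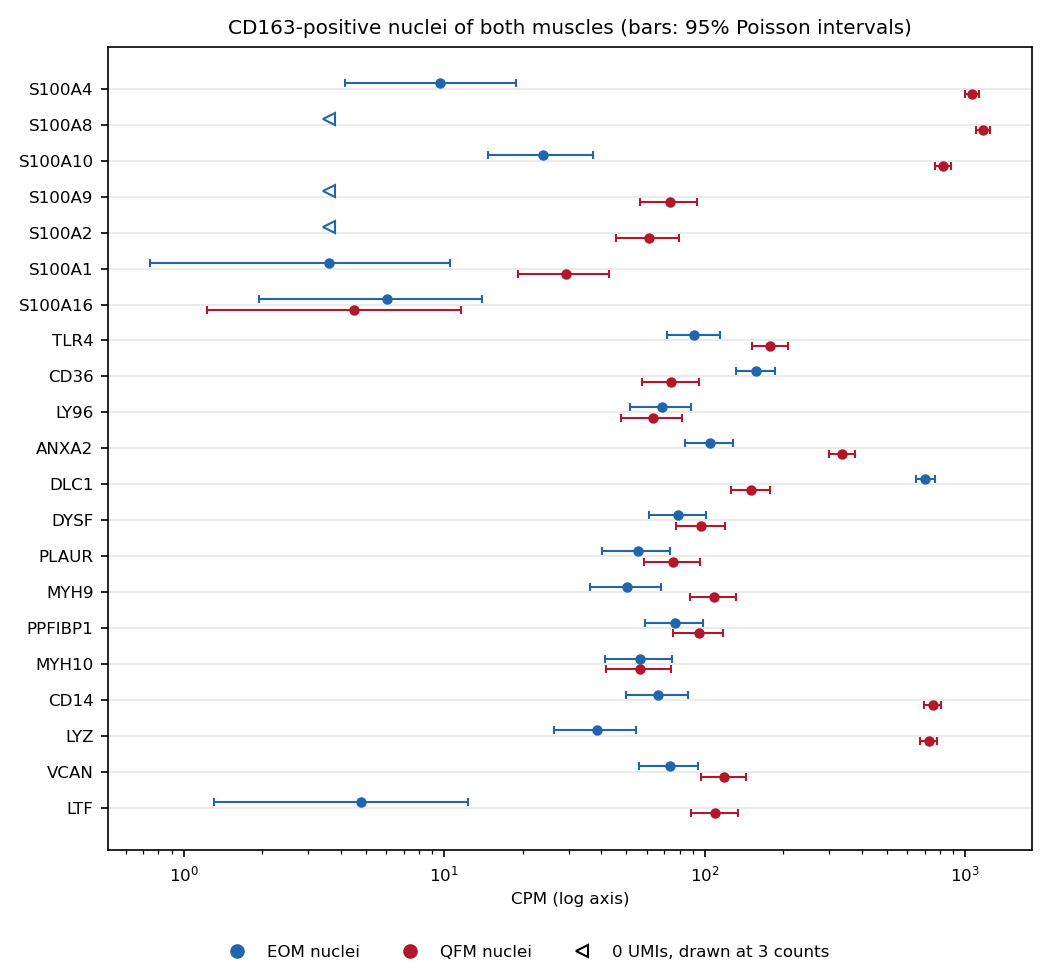
CPM (log axis) in CD163-positive nuclei of EOM in blue and QFM in red, for the 3 members, other S100 genes, their partners and monocyte genes; bars are 95% Poisson intervals and open triangles mark 0 UMIs, drawn at 3 counts. S100A8 was at 0 in EOM against 1171 CPM in QFM nuclei, while LY96 was at 68.5 against 63.2 CPM.

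Across the 16 sums of classes by library (log2 of CPM with 5 CPM added, centred within each library), the genes most like each member were ranked among 7247. For S100A8 these were S100A9 at r = 0.97, ALOX5AP at 0.97, IFI30 at 0.95, CORO1A at 0.93 and SLC11A1 at 0.93. For S100A4 they were CSTB at 0.97 and AP2M1, LAMTOR4, GPX1 and AP2S1 at 0.96. For S100A10 they were B4GALT1 at 0.83, TMBIM4 at 0.78, IFI27L2 at 0.77, CD302 at 0.77 and BAZ2B at 0.76. Between members r was 0.81 for S100A4 with S100A8, 0.10 for S100A4 with S100A10 and 0.29 for S100A8 with S100A10. The sums share 3 libraries and their depth, and with only the 13 sums of at least 50 barcodes 1, 3 and 1 of the 5 genes of S100A4, S100A8 and S100A10 stayed on the list.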

How the data were processed

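EOM cells, EOM nuclei and QFM nuclei were analysed, 1 library each. Raw UMI counts were deposited for each gene in each barcode. Headers of the nuclei tables name Cell Ranger 7.2.0; Seurat 5.2.1 stands in the submitters' processing notes, and the genome build is not given in the sources used here. NOTCH3 has no row in the nuclei tables. Barcodes were kept with at least 500 UMIs, 200 genes and a mitochondrial share of at most 20% (cells) or 10% (nuclei). Scrublet (scanpy 1.11.5, expected rate 6%) called 188, 2503 and 1863 doublets in EOM cells, EOM nuclei and QFM nuclei, which were removed. Leiden clustering (resolution 1, 2000 genes, 30 components, 15 neighbours) gave 21, 23 and 24 clusters, named from marker lists.

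Counts were summed per class and library and divided by the total. Ratios of sums have conditional exact binomial intervals, levels Poisson and shares Clopper-Pearson intervals, at 95%. A count of 0 was taken as 3 counts. A feature was measured with 20 counts over both sums. The 3 members, up to 4 genes of each list with the highest CPM, and the 5 most like each member are named. Members and lists were chosen with earlier results of these data known; the RGS5 class and named clusters were added after seeing the data. Ratios and their intervals were tested on simulated independent Poisson counts. That setting leaves out UMIs gathered in single barcodes, so it does not test the intervals for such genes. Python 3.11.15, numpy 2.4.6, scipy 1.17.1 and pandas 2.3.3 were used, with seed 1. Some measured genes are not reported here. No sequences are printed.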

Additional observations from a re-analysis of the deposited data

How the results depend on the processing

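No alternative setting reversed the direction of a ratio. Of 366 ratio values recomputed in classes of at least 50 barcodes, 290 stayed within the counting interval and 76 moved beyond it. In smaller classes 11 of 46 moved, and thinning to 1000 UMIs moved 24 of 48 shares. With at least 2 UMIs of the marker, the log2 ratio of EOM over QFM nuclei of S100A4 in the PDGFRA class was -5.22, against -4.37. That of S100A10 in the PTPRB class, -1.91, became -2.07 with any UMI or with at least 2 UMIs of the marker, -1.55 with only that marker, -1.24 by clusters, -1.26 by clusters of at least 1000 UMIs and -1.18 by named clusters. For cells over nuclei of EOM, S100A8 in the CSF3R class, 8.08 at the floor, was 5.36 with at least 2 UMIs and 7.49 with at least 1000 UMIs per barcode. S100A10 in the PTPRB class, 4.30, was 4.46 with any UMI, 3.98 with only that marker, 4.12 with at least 2 UMIs, 3.37 by named clusters, 4.48 without mitochondrial genes in the total, 4.52 with shared symbols only and 4.95 with median ratio scaling. The cause of these moves was not tested. S100A8 in CSF3R-positive nuclei of both muscles was 0 and gave no ratio. No paired analysis was possible because each group has 1 library. CSF3R-positive nuclei (17 and 4) and PAX7-positive cells (4) limit what those classes show.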
